A study of Bos taurus with 13 samples.

Results

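The miR-26 family was followed in the extracellular vesicles (EVs) of bovine follicular fluid through bta-miR-26a and its close relative bta-miR-26b, 2 of the 311 miRNAs listed in any of 13 small RNA libraries. Bta-miR-26a was chosen by its values, because it stood among the miRNAs higher in both always negative cows and always positive cows than in heifers. Bta-miR-26b was added because it belongs to the same family, whatever its values. All animals were Holstein Friesian, and fluid was taken by ovum pick-up from large follicles. Heifers, which had not calved and were in positive energy balance, gave 3 pools from 8 animals. Transient cows (TCs), which moved from negative to positive energy balance after calving, gave 3 pools from 11 cows at weeks 5 and 6 postpartum, during the negative phase. TCs gave a further 3 pools from 7 cows at weeks 9 and 10, during the positive phase. Whether some of these cows were also sampled at weeks 5 and 6 is not stated. The main comparison of both times treats their pools as independent. Always negative cows (ANCs) and always positive cows (APCs) were sampled only at weeks 5 and 6, and each gave 2 pools from 2 cows. Every cow pool thus came from a lactating animal and every heifer pool did not, so calving, lactation, parity and age cannot be told apart between them. Which animals went into which pool is not stated, and p-values therefore measure the spread between pools. In pooled vesicles, more vesicles carrying a miRNA and more copies in each vesicle cannot be told apart either.

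MiR-26a and miR-26b carry the same seed, the stretch at the 5′ end of a miRNA that pairs with target mRNAs, and their mature sequences are nearly identical. Both lie within genes of small C-terminal domain phosphatases. In the RefSeq gene table of cattle (assembly ARS-UCD2.0), MIR26A-1 lies within CTDSPL, MIR26A-2 within CTDSP2 and MIR26B within CTDSP1. MIR26A-1 and MIR26A-2 give the same mature miRNA, so its reads cannot be assigned to one locus. MIR26C shares the position of MIR26A-1, and bta-miR-26c was listed in no library. MiR-26a is known to repress EZH2, the methyltransferase of the polycomb complex, is itself repressed by MYC, and has been linked to insulin sensitivity in liver. MiR-26b is known in porcine granulosa cells as a promoter of apoptosis that acts on SMAD4 and ATM.

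Depth was sufficient to measure both members in every library. The deposited values resolved into whole reads (3681 of 3681 values within 0.1 read), which totalled 145030 to 421435 per library, with a median of 327359. MiR-26a held 1353 to 5524 of these reads and miR-26b 871 to 1935. A count of 3 reads, the lowest level taken as visible, corresponded to 7.30 to 20.1 CPM (reads per 1e6 reads, scaled as described next), far below either member. Bta-miR-202, a miRNA typical of gonads, was present at 2982 to 8014 CPM in all pools. The summed level of 6 leukocyte marker miRNAs was 4868 to 6077 CPM in heifers and 745 to 4820 CPM in cows, so it lay lower in every cow pool, and its part in the differences below was not tested.

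In heifers, miR-26a was found at 6686, 5742 and 8000 CPM in pools 1, 2 and 3, where levels of all 13 libraries were scaled together by the trimmed mean of M-values (TMM). TCs at weeks 9 and 10 showed 8475, 9334 and 6206 CPM. The ranges of both groups overlapped in part, with 2 pools of TCs above every heifer pool. In TCs at weeks 5 and 6, miR-26a was found at 10291, 14138 and 16412 CPM. ANCs showed 11200 and 15071 CPM, and APCs showed 16046 and 18449 CPM. All 7 cow pools of weeks 5 and 6 lay above all 6 pools of heifers and of TCs at weeks 9 and 10. The means were 6809 ± 1134 CPM in heifers (SD, n = 3), 8005 ± 1616 in TCs at weeks 9 and 10 (n = 3), 13135 ± 2737 in ANCs (n = 2), 13614 ± 3094 in TCs at weeks 5 and 6 (n = 3) and 17248 ± 1699 in APCs (n = 2). In this order, the step from TCs at weeks 9 and 10 to ANCs was the only one between neighbouring groups whose pools did not overlap, with 0.72 on the log2 scale. Such a step, all pools of TCs at weeks 9 and 10 below all those of ANCs, was found for 14.6% of 247 miRNAs. Heifers and TCs at weeks 9 and 10, ANCs and TCs at weeks 5 and 6, and TCs at weeks 5 and 6 and APCs overlapped.

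MiR-26b followed another order. Its level was 4304, 4831 and 4437 CPM in heifers and 3753, 5376 and 4598 CPM in TCs at weeks 5 and 6. These groups had nearly equal means, 4524 ± 274 CPM and 4576 ± 812 CPM (SD, n = 3 each). ANCs showed 4829 and 5905 CPM and APCs 4570 and 5367 CPM, also overlapping heifers, in ANCs by a margin of less than 2 CPM. When only the libraries of a pair of groups were scaled together, the pools of ANCs and of APCs both lay above those of heifers. This was common, as it held for 22.3% of 215 miRNAs in ANCs and 19.3% of 233 in APCs. TCs at weeks 9 and 10 had the lowest level, with 3514, 3651 and 2570 CPM, below all heifer pools. A pairwise level below all heifer pools was found for 5.73% of 227 miRNAs. Pools of both TC times did not overlap on this scale, but they did in the values as deposited, as shares of reads and when only the TC libraries were scaled together. From its lowest to its highest pool, miR-26b varied 2.30-fold and miR-26a 3.21-fold.

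**Figure D1:**
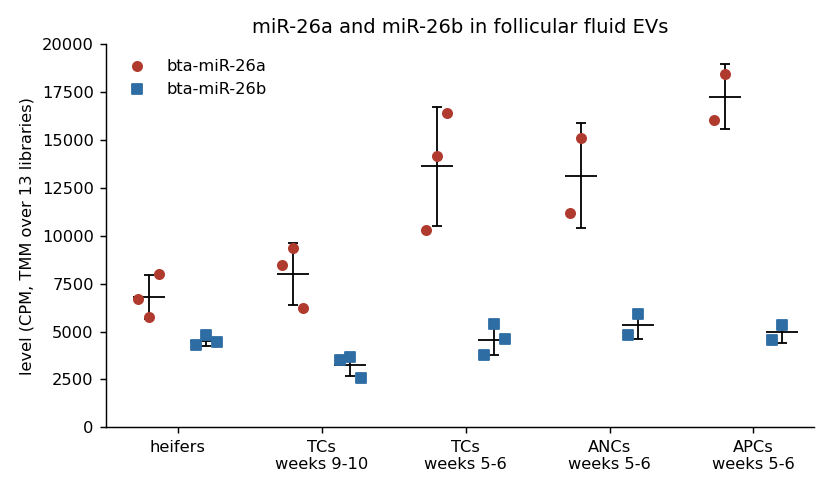
Levels of bta-miR-26a (circles) and bta-miR-26b (squares) in CPM, scaled by TMM over 13 libraries, in each pool of the 5 groups. Horizontal lines are group means and bars the SD; miR-26a lies at 10291 to 18449 CPM in the 7 pools of weeks 5 and 6 and at 5742 to 9334 CPM in the 6 others, while miR-26b stays between 2570 and 5905 CPM.

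MiR-26a was an abundant miRNA of these vesicles. It ranked 17th to 34th within single libraries and 26th of 262 by its mean over all libraries, where the 262 are the miRNAs listed for every group. Its neighbours in that order were bta-miR-130a (11657 CPM) and bta-miR-24-3p (11278 CPM) above and bta-miR-192 (8492 CPM) and bta-miR-2284x (7970 CPM) below, against 11235 CPM for miR-26a itself. MiR-26b was 47th, with 4439 CPM. As a share of reads, which uses no composition factor, miR-26a made up 0.605 to 0.856% of the reads in heifers and 0.748 to 0.973% in TCs at weeks 9 and 10. It made up 1.04 to 1.40% in TCs at weeks 5 and 6, 1.27 to 1.55% in ANCs and 1.31 to 1.43% in APCs. The Wilson 95% confidence interval of the highest share below the gap, in pool 1 of TCs at weeks 9 and 10, was 0.942 to 1.01%. That of the lowest share above it, in pool 1 of TCs at weeks 5 and 6, was 0.999 to 1.07%. These intervals overlapped slightly, which is not a test of the difference between the 2 pools. Such intervals, like the limit of 3 reads, cover counting error only.

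The order of the 3 groups of weeks 5 and 6 depended on the scaling. APCs had the highest mean level with TMM scaling (17248 CPM) and in the values as deposited (15772 CPM), whereas ANCs had the highest mean share of reads (1.41%, against 1.37% in APCs). The TMM factors were lowest in APC pool 2 (0.711), in pool 3 of TCs at weeks 5 and 6 (0.803) and in APC pool 1 (0.891), and lay between 0.982 and 1.20 in the other pools. A low factor raises the level of a miRNA relative to its share of reads. The gap between the 7 pools of weeks 5 and 6 and the 6 others was present on all 3 scales. As deposited it was narrow, with 10300 CPM in pool 1 of TCs at weeks 5 and 6. Pool 2 of TCs at weeks 9 and 10 stood at 10083 CPM on that scale.

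**Figure D2:**
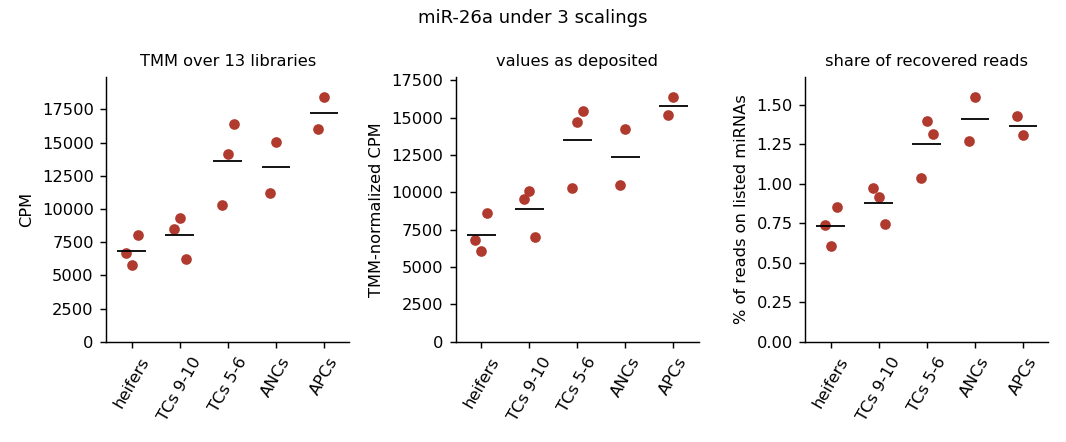
Bta-miR-26a in each pool (points) and group mean (lines) with TMM scaling over 13 libraries in CPM, as deposited in TMM-normalized CPM, and as a percentage of recovered reads. The 7 pools of weeks 5 and 6 lie above the other 6 in each panel, while the order of TCs, ANCs and APCs at weeks 5 and 6 changes.

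In order to see how the family was divided, the reads of miR-26a were set against those of miR-26b within each library. This measure needs no scaling. Because both mature sequences are nearly identical, how reads were divided between them is uncertain, and its part in this measure was not tested. MiR-26a accounted for 60.8, 54.3 and 64.3% of the miR-26 reads in the heifer pools. In the 10 cow pools it accounted for 69.9 to 78.1%, and no cow pool overlapped a heifer pool. The Wilson 95% interval of the highest heifer pool was 62.9 to 65.7% and that of the lowest cow pool, ANC pool 1, was 68.4 to 71.3%. Group means were 59.8 ± 5.08% in heifers (SD, n = 3), 70.9 ± 1.40% in ANCs (n = 2), 71.1 ± 0.684% in TCs at weeks 9 and 10 (n = 3), 74.6 ± 3.06% in TCs at weeks 5 and 6 (n = 3) and 77.6 ± 0.261% in APCs (n = 2). ANCs lay below APCs without overlap, as did 22.8% of 246 miRNAs set against miR-26b in the same way, in contrast to TCs at weeks 5 and 6, whose pool 3 reached 78.1%.

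Expressed as a ratio, there were 1.55, 1.19 and 1.80 reads of miR-26a for each read of miR-26b in heifers. TCs at weeks 9 and 10 had ratios of 2.41, 2.56 and 2.41, and TCs at weeks 5 and 6 of 2.74, 2.63 and 3.57. The ratios were 2.32 and 2.55 in ANCs and 3.51 and 3.44 in APCs. Against heifers, the mean ratio was higher by 1.22 on the log2 scale in APCs (SE 0.18), 0.98 in TCs at weeks 5 and 6 (SE 0.22), 0.72 in TCs at weeks 9 and 10 (SE 0.18) and 0.70 in ANCs (SE 0.19). Leaving out any single pool kept these differences at or above 0.54. TCs at weeks 9 and 10, which overlapped heifers in the level of miR-26a, were thus apart from them in the ratio, where the lower level of miR-26b entered. Since the ratio to heifers contains the values by which miR-26a was chosen, these differences are a description. Of 246 miRNAs set against miR-26b in the same way, 3 (1.22%) had all 10 cow pools above all 3 heifer pools, namely bta-miR-26a, bta-miR-6518 and bta-miR-660, and 4 (1.63%) had all cow pools below.

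**Figure D3:**
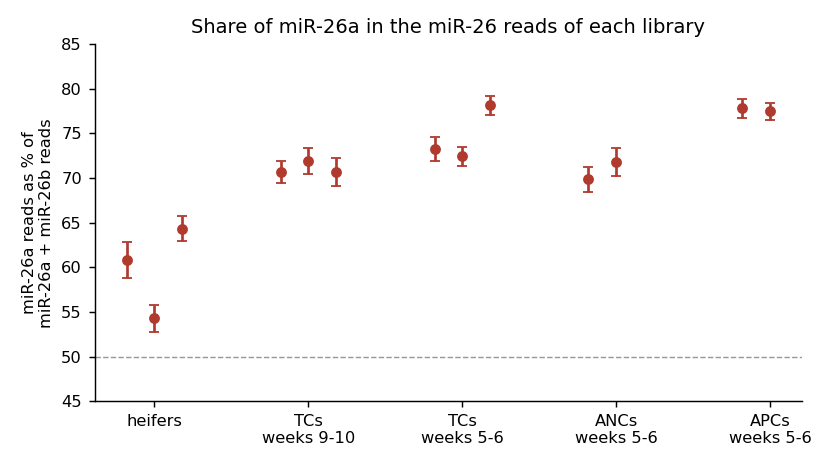
Reads of bta-miR-26a as a percentage of the reads of bta-miR-26a and bta-miR-26b together in each pool, with Wilson 95% intervals that cover counting error only; the vertical axis runs from 45 to 85% and the dashed line marks equal reads. The heifer pools lie at 54.3 to 64.3% and the cow pools at 69.9 to 78.1%.

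Across libraries, the levels of both members were correlated, which is given as a description because the pools include those on which miR-26a was chosen. Over the 10 cow pools the log2 levels of miR-26a and miR-26b had Pearson's r = 0.893 and Spearman's rho = 0.733. Without pools 1 and 3 of TCs at weeks 9 and 10, which lay farthest from the median of miR-26a, r was 0.723. Over all 13 pools, r was 0.594 and rho 0.527. There r was 0.718 without APC pool 2 and heifer pool 2 and 0.721 after the group means were subtracted. The 3 heifer pools are too few for a value of their own. Shared library scaling acts on both members alike, and its part in these correlations was not tested.

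The comparison between the TC times was the only one of miR-26a that used neither heifers, ANCs nor APCs. All pools of weeks 9 and 10 were lower in miR-26a than those of weeks 5 and 6, as for 6.7% of 224 miRNAs, with a log2 fold change of -0.75 (SE 0.33, 95% interval -1.51 to 0.01). This change did not pass the threshold used throughout, which asked for a log2 fold change of 1 or more in either direction, p under 0.05 before adjustment and 0.25 or less after it (limma adjusted p = 0.573). The exact permutation test of the levels gave p = 0.1, two-sided, which is the smallest value that 3 pools against 3 allow. Between the TC times, 0 of 224 miRNAs passed that threshold (0%), with 12 at an unadjusted p under 0.05 in limma, 0 called by edgeR and 8 by DESeq2. For miR-26b the log2 fold change was -0.48 (SE 0.31, 95% interval -1.19 to 0.23, limma adjusted p = 0.617). The exact permutation test of its levels over 13 libraries gave p = 0.1 as well, but its pools overlapped on the other scales named above. The miR-26a share of the family was 3.52 percentage points lower at weeks 9 and 10 (SE 1.81, exact permutation p = 0.1, the smallest possible). Its pools did not overlap between the times. Of 246 miRNAs set against miR-26b, this held for 1 (0.407%), miR-26a itself. MiR-26b, the reference here, was itself lower at weeks 9 and 10, which raises the ratio there for any miRNA that fell less. A lower ratio is thus made rare by the choice of reference.

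The comparisons with heifers asked how vesicle miRNAs of cows at a given metabolic status differed from those of animals without lactation. Those of miR-26a are given without a test. MiR-26a was higher than in heifers by a log2 fold change of 1.03 in ANCs (SE 0.35), 1.504 in APCs (SE 0.34) and 0.98 in TCs at weeks 5 and 6 (SE 0.27), and in each of these comparisons the pools of cows lay above those of heifers. That was common, as it held for 22.3% of 215 miRNAs in ANCs, 19.3% of 233 in APCs and 7.39% of 230 in TCs at weeks 5 and 6. ANCs thus stood just inside the fold threshold of 1 and TCs at weeks 5 and 6 just outside it. The difference was 0.27 in TCs at weeks 9 and 10 (SE 0.27), and pools overlapped. The 4 comparisons share the same 3 heifer pools. As background, 18.6% of 215 miRNAs were called for ANCs (14 higher, 6.51%, and 26 lower, 12.1%) and 12.4% of 233 for APCs (22 higher, 9.44%, and 7 lower, 3%). For TCs at weeks 5 and 6, 6.96% of 230 were called (4 higher, 1.74%, and 12 lower, 5.22%). For TCs at weeks 9 and 10, 0 of 227 were called (0%), with 24 at an unadjusted p under 0.05 in limma, 0 called by edgeR and 14 by DESeq2.

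These counts rested on single pools. For ANCs the count fell from 40 to 0 without ANC pool 1, 6 without heifer pool 1 and 17 without heifer pool 2. For APCs it fell from 29 to 3 without heifer pool 1. The count for TCs at weeks 5 and 6 fell from 16 to 0 without any of TC pools 1 and 3 and heifer pools 1 and 2. The calls named below share this dependence. The balance of higher and lower calls also moved with the scaling. In APCs, 75.9% of calls were higher with TMM, 42.9% in the values as deposited and 22.2% with total reads. In ANCs these shares were 35%, 8.89% and 25.6%, with 23.7% under median-of-ratios scaling. In TCs at weeks 5 and 6, 25% of calls were higher with TMM and 46.2% under median-of-ratios scaling. Scaling to total reads shifted the median log2 fold change of all miRNAs from 0.03 to -0.54 for APCs against heifers, and miR-26a then stood at 0.91, well above the shifted median. In the comparison of ANCs with heifers, miR-26a fell below the fold threshold as deposited, at 0.78, with total reads, at 0.95, with median-of-ratios scaling, at 0.96, with all 13 libraries in 1 fit, at 0.94, without ANC pool 2, at 0.79, and without heifer pool 2, at 0.88.

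MiR-26b was tested against heifers, since its values had no part in its choice, and it was called in none of the 4 comparisons. Its log2 fold change was 0.33 in ANCs (SE 0.33, 95% interval -0.43 to 1.09, limma adjusted p = 0.508). In APCs it was 0.29 (SE 0.32, interval -0.47 to 1.05, limma adjusted p = 0.677). The difference was -0.00 in TCs at weeks 5 and 6 (SE 0.23, interval -0.56 to 0.55, limma adjusted p = 0.995). In TCs at weeks 9 and 10 it was -0.45 (SE 0.27, interval -1.06 to 0.16, limma adjusted p = 0.590). The intervals for ANCs, APCs and TCs at weeks 9 and 10 reach past the fold threshold of 1, while that for TCs at weeks 5 and 6 stays within it.

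The remaining comparisons set cows of different metabolic status against each other at weeks 5 and 6. MiR-26a was lower in ANCs than in APCs by a log2 fold change of -0.37 (SE 0.38). Their pools did not overlap, as for 19.3% of 207 miRNAs in that direction, but they overlapped as shares of reads, and with total reads the value was 0.039. Against TCs of the same weeks it differed by -0.06 in ANCs (SE 0.39) and by 0.42 in APCs (SE 0.39). Each of these differences was close to its SE or smaller. With only these 2 groups scaled together, all APC pools lay above all TC pools in miR-26a. In that comparison, 34 of 225 miRNAs had no overlap, counting either direction. The same pools overlapped in miR-26a when all 13 libraries were scaled together. MiR-26b showed 0.15 for ANCs against APCs (SE 0.37, limma adjusted p = 0.871), 0.22 for ANCs against TCs (SE 0.35, limma adjusted p = 0.844) and 0.18 for APCs against TCs (SE 0.35, limma adjusted p = 0.993). No miRNA was called for ANCs against APCs (0 of 207, 0%), where 17 had an unadjusted p under 0.05, edgeR called 0 and DESeq2 called 6. For ANCs against TCs it was 0 of 225 (0%), with 18 under 0.05, and edgeR and DESeq2 also called 0. For APCs against TCs it was 0 of 225 (0%), with 6 under 0.05, edgeR calling 0 and DESeq2 calling 1.

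**Figure D4:**
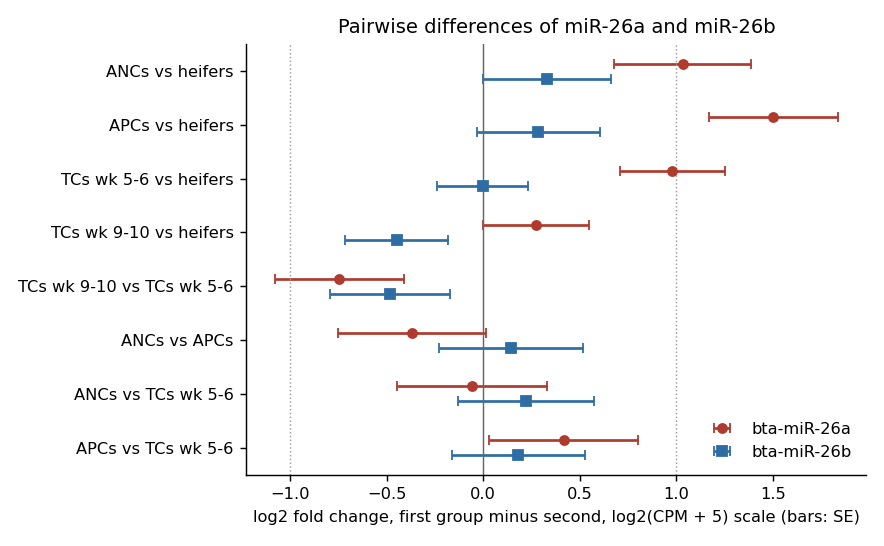
Log2 fold changes of bta-miR-26a (circles) and bta-miR-26b (squares) on the log2(CPM + 5) scale in 8 pairwise comparisons, first group minus second, with bars of 1 SE and dotted lines at the fold threshold of 1 in each direction. MiR-26a exceeds miR-26b in all 4 comparisons with heifers, and both lie below 0 between the TC times.

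Among the other miRNAs, the levels of 5 were most like that of miR-26a over the 13 libraries. Pearson's r of log2 levels was 0.89 for bta-miR-2284x, a member of a ruminant-specific family, 0.88 for bta-miR-1839, 0.86 for bta-miR-130a, 0.86 for bta-miR-320a, whose maturation bypasses Drosha, and 0.82 for bta-miR-296-3p. Each had its highest group mean in APCs and its lowest in heifers, as miR-26a did. Bta-miR-2284x, for instance, had a mean of 5027 CPM in heifers, 6204 in TCs at weeks 9 and 10, 7906 in ANCs, 9304 in TCs at weeks 5 and 6 and 13095 in APCs. Bta-miR-320a was the most abundant of them, with means from 34335 CPM in heifers to 147190 CPM in APCs. Within groups, r fell to 0.51 to 0.66 for these 5, against 0.72 for miR-26b, although miR-26b was only 27th of 246 over all libraries with 0.59. The median r of the 246 miRNAs was -0.10. All points share the library scaling given above.

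The levels of 3 miRNAs ran most opposite to miR-26a. These were bta-miR-342, which lies within the EVL gene (r = -0.90), bta-miR-16a, a repressor of cell cycle genes (r = -0.86), and bta-miR-151-3p, from an intron of PTK2 (r = -0.81). Bta-miR-342 had a mean of 7004 CPM in heifers and 3294 CPM in APCs. In all 7 pools of weeks 5 and 6, the levels of 2 of 247 miRNAs (0.81%) lay above those of all 6 other pools. The 6 were those of heifers and of TCs at weeks 9 and 10, and the miRNAs were bta-miR-26a and bta-miR-499. For miR-26a this pattern contains the values by which it was chosen, so its place among them is a description. Bta-miR-499, a miRNA of striated muscle, was scarce, and its log2 fold change between the TC times was -1.04 (SE 0.49, limma adjusted p = 0.573).

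**Figure D5:**
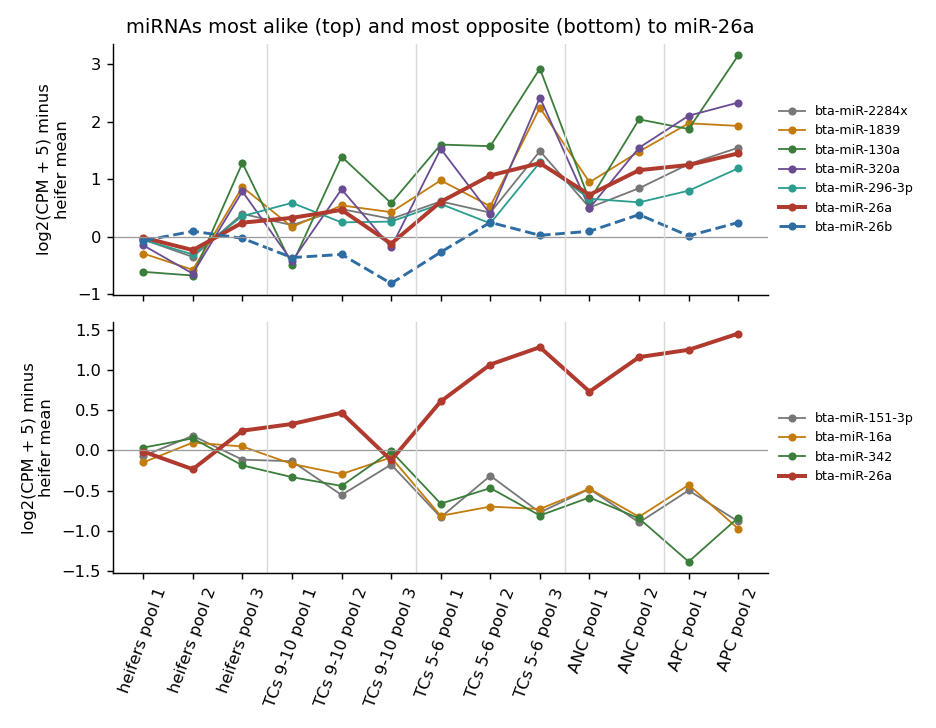
Log2(CPM + 5) of miRNAs in each pool minus their mean in heifers, for the 5 most like bta-miR-26a with bta-miR-26b (top) and the 3 most opposite (bottom). Lines join the values of one miRNA and imply no order of pools; pool 3 of TCs at weeks 5 and 6 and the APC pools are high in the top panel.

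The other miRNAs of pathways in which miR-26a acts were taken as lists. Of 12 miRNAs known to target EZH2, which are miR-101, miR-138, miR-214, miR-98 and the let-7 family, none was called in ANCs (11 tested, median log2 fold change 0.11 against 0.00 for all miRNAs) or in APCs (12 tested, median -0.42 against 0.03). 1 of 12 fell in TCs at weeks 5 and 6, bta-let-7g, by 1.05 on the log2 scale (limma adjusted p = 0.222), beside 5.22% of all miRNAs called lower there, with a median of -0.43 against -0.03. None was called in the other 5 comparisons, where medians ran from -0.14 to 0.41.

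Of 18 miRNAs that MYC represses, 2 were called in ANCs against heifers, and both fell, where 12.1% of all miRNAs tested were called lower. They were bta-miR-150, a lymphocyte miRNA, with -2.47 (SE 0.50, limma adjusted p = 0.0749), and bta-miR-146a, a brake on inflammatory signalling, with -2.14 (SE 0.54, limma adjusted p = 0.0924). Both also belong to the leukocyte markers, whose 5 tested members were all called lower in ANCs. In APCs, 3 of the 18 rose and 1 fell, beside 9.44% and 3% of all miRNAs. Those that rose were bta-miR-23b-3p with 2.52 (SE 0.48), bta-miR-23a with 2.07 (SE 0.39), both repressors of glutaminase, and bta-miR-22-3p with 2.01 (SE 0.44), each at a limma adjusted p = 0.0568. Bta-miR-30b-5p fell by 1.14 (SE 0.40, limma adjusted p = 0.211). Bta-miR-146a also fell in TCs at weeks 5 and 6, by 1.05 (SE 0.37, limma adjusted p = 0.243). The medians of the list were 0.06 in ANCs, -0.23 in APCs and 0.07 in TCs at weeks 5 and 6, against 0.00, 0.03 and -0.03 for all miRNAs, and none of the list was called in the other 5 comparisons.

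Of 11 miRNAs known from insulin action and energy metabolism, 9 were tested in each comparison. Calls against heifers were 1 lower in ANCs (12.1% of all miRNAs), 2 higher in APCs (9.44%) and 1 higher in TCs at weeks 5 and 6 (1.74%). In APCs, bta-miR-107 rose by 2.41 (SE 0.49) and bta-miR-103 by 2.16 (SE 0.48), both regulators of insulin sensitivity, at a limma adjusted p = 0.0568. These 2 differ by very little in sequence, and so do miR-23a and miR-23b, so how their reads were divided is uncertain. Bta-miR-375, a miRNA of pancreatic islets, rose in TCs at weeks 5 and 6 by 1.23 (SE 0.42, limma adjusted p = 0.243). In ANCs bta-miR-122, the main miRNA of hepatocytes, fell by 3.31 (SE 0.89, limma adjusted p = 0.0971). The medians of the list were -0.06 in ANCs, 0.36 in APCs and 0.60 in TCs at weeks 5 and 6, and none of the list was called in the other 5 comparisons.

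Markers of other cell types stood as follows beside these comparisons. Against heifers, the 5 tested leukocyte markers had negative log2 fold changes in all 4 comparisons, and 5 were called in ANCs, 3 in TCs at weeks 5 and 6 and none in the other 2. The scarce bta-miR-142-3p, also on that list, was not tested and went the other way. Its mean was 15.5 CPM in heifers and 17.3 to 27.4 CPM in the cow groups. Of all miRNAs, 12.1% were called lower in ANCs, 5.22% in TCs at weeks 5 and 6 and 3% in APCs, and the marker counts that follow stand beside these shares. Summed erythrocyte markers were 1717 to 3958 CPM in heifers, 751 to 5583 in TCs at weeks 5 and 6, 2425 to 10962 in TCs at weeks 9 and 10, 131 to 1145 in ANCs and 2137 to 8934 in APCs, and bta-miR-451 was at 0 in 1 ANC pool. Both erythrocyte markers tested were called lower in ANCs. The 6 epithelial markers summed to 5138 to 8222 CPM in ANCs and 14242 to 22229 CPM in heifers. Of these, 3 were called lower in ANCs and 1, bta-miR-205, in APCs and in TCs at weeks 5 and 6. The 3 muscle markers summed to 567 to 976 CPM in heifers and 224 to 482 CPM in cows, with 1 called lower in ANCs and 1 in TCs at weeks 5 and 6. MiR-26a was high in ANCs, where the summed leukocyte, erythrocyte and epithelial markers reached their lowest values. The epithelial sums of ANCs overlapped those of every other cow group. In TCs at weeks 9 and 10, where miR-26a was lower, leukocyte sums (1573 to 4820 CPM) and epithelial sums (5632 to 17776 CPM) both overlapped those of ANCs. MiR-26a was also high in APCs, where erythrocyte markers overlapped heifers. Summed leukocyte and muscle markers were lower in every cow pool than in every heifer pool. The part of other cell types in the level of miR-26a was not tested.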

How the data were processed

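EVs were isolated from pooled follicular fluid by ultracentrifugation, and libraries were made with the QIAseq miRNA kit. The authors trimmed adapters with cutadapt 1.11, mapped reads to UMD3.1 with Bowtie2 2.2.2 and normalized them with edgeR's TMM. The deposited values are TMM-normalized CPM, and columns whose totals pass what CPM can sum to were recorded as a signal, although the authors made these deposited values alike. Steps between low values gave back whole reads, and libraries of 2 groups were rescaled by TMM over the miRNAs listed for both. Because reads came as CPM rather than counts, limma 3.58.1 with a trend (R 4.3.3) was applied to log2(CPM + 5) after filterByExpr (minimum count 10, total 15) and Benjamini-Hochberg adjustment; edgeR 4.0.16 and DESeq2 1.42.0 on recovered reads were alternatives. These steps were tested on simulated data. Members and lists were chosen with earlier results of these data known. Named miRNAs were the family, the 5 most and 3 least correlated with miR-26a, its neighbours in level and called list members; bta-miR-6518, bta-miR-660 and bta-miR-499 were named after their values were seen. Replicate numbers come from the labels. Among comparisons with 3 pairs, same-numbered pools all deviated together only for TCs at weeks 5 and 6 and heifers (r = 0.216, 0.377 and 0.385 for replicates 1 to 3), where the replicate block left miR-26a at 0.98 and miR-26b at -0.00, with 29 calls in place of 16. No 2 pools of a group were alike within sampling noise (chi-square per degree of freedom at least 42.4).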

Additional observations from a re-analysis of the deposited data

How the results depend on the processing

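The log2 fold change of miR-26a against heifers stayed positive in all 16 alternatives for ANCs (0.78 to 1.33), 15 for APCs (0.91 to 1.65) and 17 each for TCs at weeks 5 and 6 (0.77 to 1.24) and at weeks 9 and 10 (0.18 to 0.41). Between the TC times it stayed negative in all 17 (-0.98 to -0.50, adjusted p 0.245 to 0.842) and was never called. With total reads, miR-26a moved to 0.91 for APCs against heifers, 0.039 for ANCs against APCs and 0.14 for APCs against TCs at weeks 5 and 6, and values as deposited gave 1.15 for APCs against heifers. Leaving out 1 pool gave -0.60 to -0.14 for ANCs against APCs, the ends being without ANC pool 2 and without ANC pool 1. MiR-26b was called in no alternative but changed sign against heifers in APCs with total reads (-0.30) and as deposited (-0.067). For TCs at weeks 5 and 6 it turned to 0.083 with median-of-ratios scaling, 0.012 with edgeR, 0.10 with DESeq2, 0.0026 with all 13 libraries in 1 fit, and -0.022 to 0.21 when 1 pool was left out. It ranged from -0.021 to 0.31 for ANCs against APCs and from -0.0015 to 0.46 for ANCs against TCs when 1 pool was left out, and was -0.092 for APCs against TCs with total reads. Total reads also moved the APC level of miR-26a to 13700 CPM, that of miR-26b to 3942 CPM, and the heifer level of miR-26b to 4863 CPM; the cause was not tested beyond the scaling itself.

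Counts of called miRNAs were far less stable. Against heifers and without 1 pool, they ranged from 0 to 58 in ANCs, 3 to 48 in APCs, 0 to 46 in TCs at weeks 5 and 6 and 0 to 24 in TCs at weeks 9 and 10. They ranged from 0 to 22 between the TC times, 0 to 34 for ANCs against APCs, 0 to 10 for ANCs against TCs and 0 to 4 for APCs against TCs. The highest counts were those without heifer pool 3 or APC pool 1 for APCs (47 and 48), without pool 2 of TCs at weeks 5 and 6 against heifers (46) and between the TC times (22), without pool 2 of TCs at weeks 9 and 10 against heifers (24), without APC pool 1 for ANCs against APCs (34), without ANC pool 2 for ANCs against TCs (10) and without APC pool 2 for APCs against TCs (4). With total reads, counts against heifers were 63 in APCs, 26 in TCs at weeks 5 and 6 and 6 in those of weeks 9 and 10, and 49 in APCs as deposited. Against heifers, DESeq2 called 36 in TCs at weeks 5 and 6, and 1 fit of all libraries called 4 in those of weeks 9 and 10. The replicate block, against heifers, gave 65 in ANCs, 29 in TCs at weeks 5 and 6 and 7 in those of weeks 9 and 10, and 28 for ANCs against APCs and 2 for ANCs against TCs; outside TCs at weeks 5 and 6 with heifers, the pools share only a number (r of same-numbered deviations -0.17 to 0.22). The block changed no call of miR-26b and left miR-26a between the TC times at -0.75, uncalled. The day of RNA measurement, a covariate chosen after seeing the data, left miR-26a at 0.98 in TCs at weeks 5 and 6 and 1.09 in ANCs against heifers, while the calls for TCs at weeks 5 and 6 fell to 0. It could not be fitted for APCs, since 1 pool has no recorded day.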
